A study of Mus musculus with 16 samples.

Results

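The 39 genes described here encode enzymes of glycolysis and of the pentose phosphate pathway, their main regulators, and the proteins of the hypoxia response. They were taken as a list of symbols by pathway, with no threshold on measured values, and all 39 were found among the 50600 genes of the count table. The libraries are bulk RNA sequencing of cells sorted by a fluorescent reporter from male mice 13 to 14 weeks old. There were 4 groups with 4 libraries apiece. Control microglia and ischemic microglia were CX3CR1+ cells of CX3CR1CreERT2:Rosa26-tdT mice, in which a tamoxifen-inducible Cre expressed from the Cx3cr1 locus switches on the red protein tdTomato. The former came from control brain and the latter from the ipsilateral (ischemic) hemisphere. Brain CD11c cells and spleen CD11c cells were CD11c-eYFP+ cells of Tg(Itgax-Venus)1Mnz mice, in which the promoter of the CD11c gene Itgax drives a yellow fluorescent protein. The brain cells came from the ischemic hemisphere, and for the spleen donors the labels give no disease state. Both brain populations and the control microglia passed through enzymatic dissociation and a Percoll gradient. The time from ischemia to sorting, tamoxifen dosing and any pooling of animals were not given in the sources used here. The titles of 1 brain and 1 spleen CD11c library (brain replicate 1, spleen replicate 4) carry the same number, 11, and numbers also recur between ischemic microglia and CD11c libraries, which come from different strains. No label says that a number stands for an animal, and the fits treat all libraries as separate. The p-values therefore reflect spread among libraries, which may be technical.

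Glycolysis splits glucose into pyruvate with a small yield of ATP, and lactate dehydrogenase then turns pyruvate into lactate when the mitochondria do not take it up. The pentose phosphate pathway branches off after the first step and supplies NADPH, which phagocytes use for the oxidative burst and for antioxidant defence, and ribose for nucleotides. Hypoxia-inducible factors (HIF) are transcription factors whose alpha subunits are marked for destruction by oxygen-dependent prolyl hydroxylases. When oxygen falls, or when myeloid cells receive inflammatory signals, HIF-1 accumulates and raises transcription of most glycolytic enzymes and of a set of target genes, among them the hydroxylase gene Egln3 itself. HIF protein is controlled largely after transcription, so an mRNA level of Hif1a is not a measure of HIF activity.

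Depth was 31569304 to 48245164 counts per library, and the members had a mean count of 35 (P4ha2) to 17345 (Pfkfb3) per library, with 2 members under 100. Values are CPM, counts relative to the library total, scaled by TMM factors. The first 2 principal components held 67.7% and 16.4% of the variance. On the third, with 5.08%, brain CD11c replicates 1 and 2 stood apart from replicates 3 and 4, and the labels also name these pairs in different styles. Microglial marker genes summed to 22850 to 27268 CPM in control microglia, 15772 to 20869 in ischemic microglia, 6636 to 6887 in brain CD11c cells and 197 to 280 in spleen CD11c cells (7 of 7 genes above a mean of 1 CPM in each brain group). Dendritic cell markers (7 genes) summed to 3900 to 10431 CPM in brain CD11c cells and 2817 to 4807 in spleen CD11c cells, against 76 to 454 in microglia. Most of these sums was the MHC class II gene H2-Ab1 (means of 6458 CPM in brain and 3398 in spleen CD11c cells). Flt3 (258 and 208 CPM) and Ccr7 (203 and 115) were also higher in brain by mean. Zbtb46 (24.2 and 73.3 CPM), Dpp4 (185 and 225), Batf3 (13.4 and 29.9) and Xcr1 (18.9 and 30.1) were higher in spleen. Monocyte markers (6 genes) summed to 1077 to 1730 CPM in brain CD11c cells, 520 to 604 in spleen CD11c cells and 128 to 248 in microglia. By mean, Ccr2 (622 and 81.9 CPM), F13a1 (226 and 12.5), Chil3 (168 and 39) and Vcan (12 and 2.77) were higher in brain than in spleen. Plac8 (266 and 383 CPM) and Ly6c2 (28.9 and 36.8) were higher in spleen. B cell markers (5 genes) summed to 2228 to 2926 CPM in spleen CD11c cells and to 10.8 to 21.7 in all other libraries, and erythroid markers reached 3538 CPM in spleen replicate 1. In bulk samples, fewer cells of a type and less RNA per cell cannot be told apart.

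Of the 39 members, 17 were higher in ischemic than in control microglia and 32 were higher in brain than in spleen CD11c cells. By edgeR's quasi-likelihood test with Benjamini-Hochberg adjustment over 16345 genes, those 17 members (43.6%) rose in ischemic microglia against control microglia, where 17.7% of all genes were called higher, and 2 (5.13%) fell, where 18% of all genes were called lower. The median log2 difference of the members was 0.36, beside -0.05 over all genes tested. Between brain and spleen CD11c cells, the 32 members (82.1%) were higher in the brain and 1 (2.56%) was lower, with 31.2% and 33% of all genes called in these directions. The median there was 1.14, beside -0.04 over all genes.

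Between the CD11c cells and the microglia of the ischemic hemisphere, the members had no common direction by counts and median. This does not measure closeness, since single members differed by up to 4.70 on the log2 scale (Pfkp). Of the 39 members, 6 (15.4%) were higher in brain CD11c cells and 10 (25.6%) were higher in ischemic microglia. The shares over all genes were 19.7% and 19.1%, so both counts were near the background, and the median was 0.07 beside 0 over all genes. The brain CD11c libraries were not uniform here. Pkm and Pgd were called higher with brain replicates 1 and 2 alone and lower with replicates 3 and 4 alone. Of the 16 calls, 9 held in every alternative run. Spleen CD11c cells against control microglia gave 9 members higher (23.1%) and 20 lower (51.3%), where 37.1% and 31.7% of all genes were called, with a median of -0.58 beside 0.11. Comparisons that share a group are not independent. The comparison of the microglia and that of brain with spleen share no library, and 16 members were higher in both. That is 94.1% of the 17 higher in ischemic microglia, where 82.1% of all 39 members were higher in brain than in spleen. It is 50% of the 32 higher in brain CD11c cells. The same overlap over all genes was not computed, so the count is no measure of a link between the comparisons. Of the 17, only Pdk3 was not called higher in brain than in spleen.

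**Figure D1:**
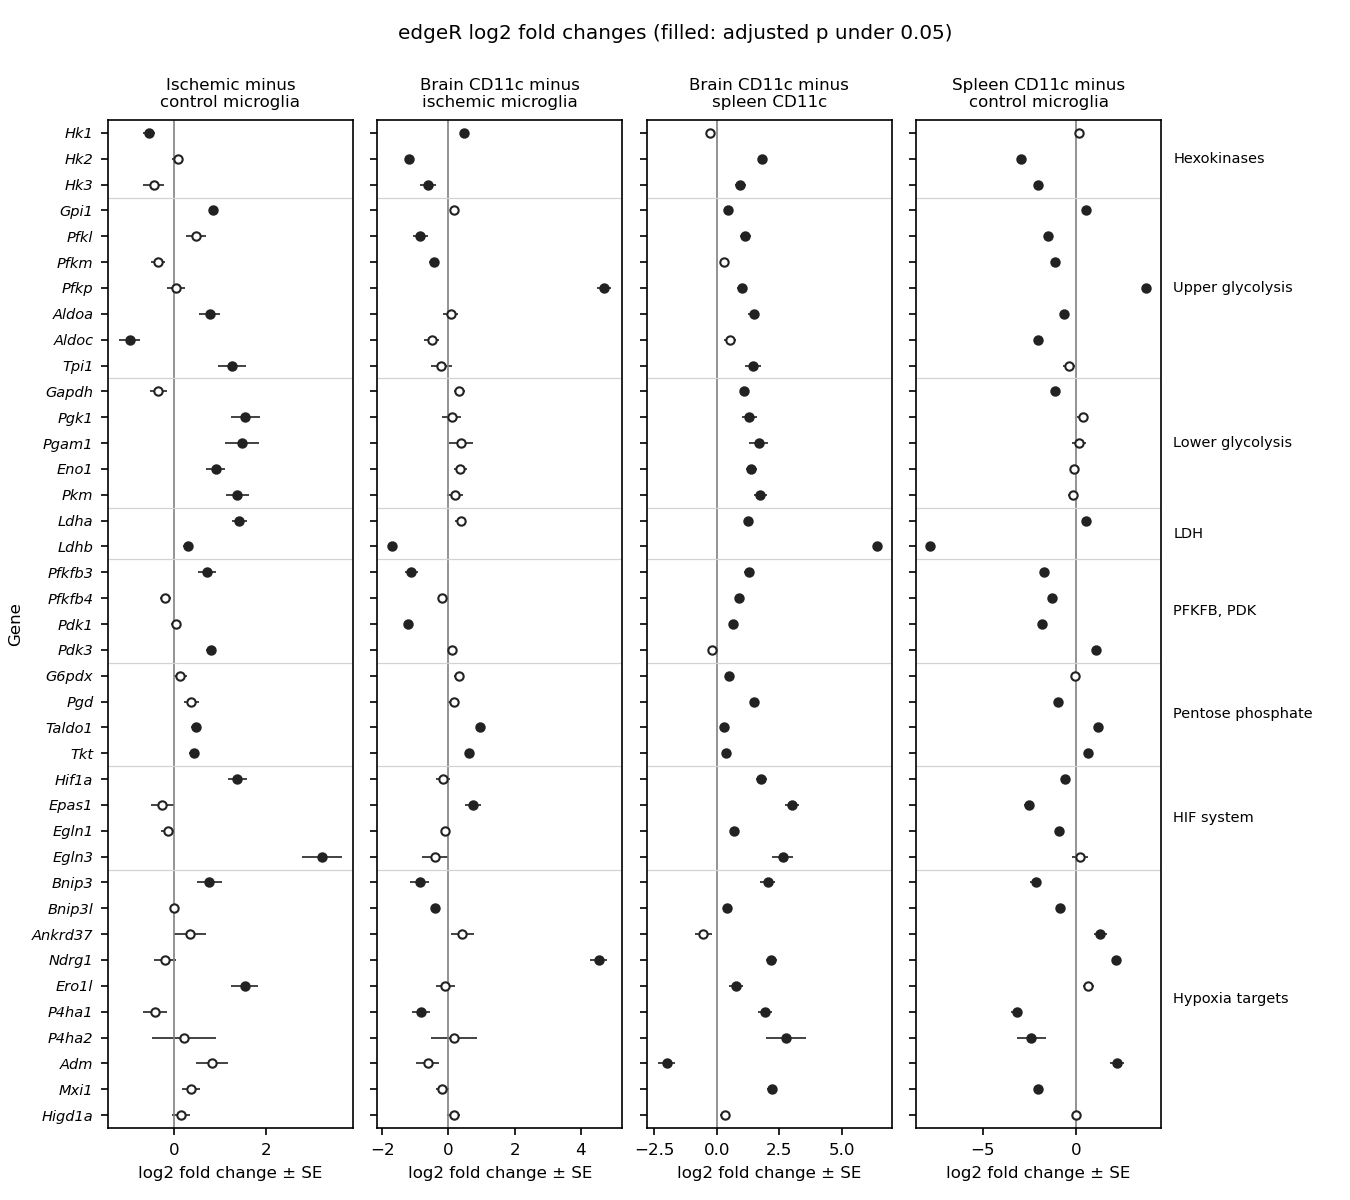
Log2 fold change with its standard error (x axis, log2 units) for each of the 39 genes (rows, grouped by role) in 4 comparisons of 4 against 4 libraries. Filled points have an adjusted p under 0.05 by edgeR. Nearly all points of the third panel lie right of 0 (32 members called higher, 1 lower), and Ldhb has the largest difference in each panel that contains the spleen group (6.41 and -7.82).

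Seen by group mean, brain CD11c cells held the highest level for 16 members, ischemic microglia for 11, control microglia for 8 and spleen CD11c cells for 4 (Hk1, Pdk3, Ankrd37 and Adm). Spleen CD11c cells held the lowest mean for 25 members, and brain CD11c cells for none.

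**Figure D2:**
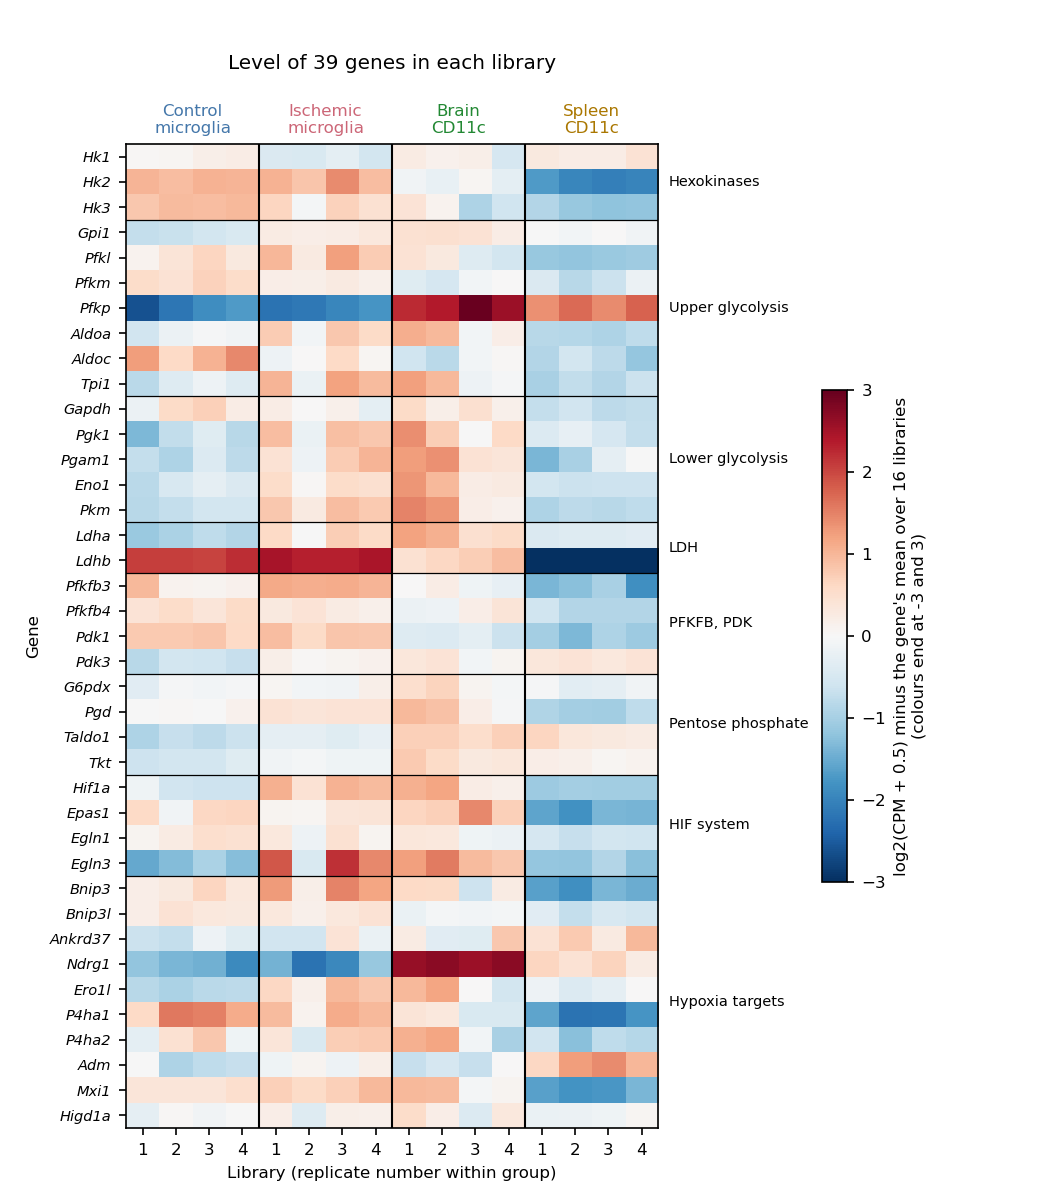
Heat map of the 39 genes (rows, by role) in the 16 libraries (columns, replicates 1 to 4 of each group). Colour is log2(CPM + 0.5) minus the gene's mean over all libraries, and it ends at -3 and 3. The spleen columns are mostly blue, while replicates 1 and 2 of brain CD11c cells are redder than replicates 3 and 4 in many rows.

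Sequences before the start are shown for the lactate dehydrogenase pair, whose Ldhb had the largest difference of any member, and for 3 genes that rose in ischemic microglia (Pgk1, Egln3, Ero1l). These sequences were chosen by hand and do not represent all members that rose. Each is the 250 bases before the first start listed by RefSeq (GRCm38.p6), written on the gene's strand. Capitals mark ACGTG or its reverse complement CACGT, a form of the core of the HIF-binding element. The palindrome CACGTG, which is also an E-box bound by other factors, counts as 2 matches. The Ldha window lies at chr7:46845554-46845803 (+ strand) and holds 5 matches, the Ldhb window at chr6:142507958-142508207 (- strand) holds 0, the Pgk1 window at chrX:106186850-106187099 (+ strand) holds 2, the Egln3 window at chr12:54203875-54204124 (- strand) holds 1, and the Ero1l window at chr14:45318573-45318822 (- strand) holds 1.
Ldha: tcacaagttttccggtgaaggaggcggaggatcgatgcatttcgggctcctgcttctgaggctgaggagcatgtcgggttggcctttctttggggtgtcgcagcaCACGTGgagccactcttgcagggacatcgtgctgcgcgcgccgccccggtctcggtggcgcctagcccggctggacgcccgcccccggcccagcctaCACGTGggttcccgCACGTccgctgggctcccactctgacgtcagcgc
Ldhb: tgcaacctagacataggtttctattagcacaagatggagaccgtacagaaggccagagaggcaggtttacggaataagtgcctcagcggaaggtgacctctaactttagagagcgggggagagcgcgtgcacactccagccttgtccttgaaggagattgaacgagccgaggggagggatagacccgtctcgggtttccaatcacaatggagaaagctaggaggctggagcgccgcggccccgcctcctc
Pgk1: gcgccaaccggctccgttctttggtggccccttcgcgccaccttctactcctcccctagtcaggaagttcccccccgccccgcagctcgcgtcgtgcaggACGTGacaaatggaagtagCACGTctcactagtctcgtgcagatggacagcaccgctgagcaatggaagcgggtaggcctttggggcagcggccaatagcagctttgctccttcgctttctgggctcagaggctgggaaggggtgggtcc
Egln3: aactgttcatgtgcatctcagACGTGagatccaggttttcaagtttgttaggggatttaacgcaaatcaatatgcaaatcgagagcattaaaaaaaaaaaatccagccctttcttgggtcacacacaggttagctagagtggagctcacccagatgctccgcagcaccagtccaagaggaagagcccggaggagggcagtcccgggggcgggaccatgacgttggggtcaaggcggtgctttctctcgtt
Ero1l: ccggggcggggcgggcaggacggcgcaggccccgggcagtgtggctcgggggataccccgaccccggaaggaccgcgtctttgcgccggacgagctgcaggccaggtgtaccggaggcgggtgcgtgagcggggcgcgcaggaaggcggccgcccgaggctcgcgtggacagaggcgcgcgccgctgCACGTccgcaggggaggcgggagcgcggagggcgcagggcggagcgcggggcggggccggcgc
GENCODE M21 also gives Ldha an earlier start at 46841475, so the Ldha window lies within the annotated gene. It likewise starts Ero1l earlier, at 45318771 on the - strand. Most of the Ero1l window, with its match, therefore lies within the annotated gene. The sequence after the RefSeq start was found near the start of a GENCODE transcript for 27 of the 36 members with a window, Ldhb, Pgk1 and Ero1l among them, and not for Ldha or Egln3. Of these 36, 16 (44.4%) held the motif, beside 16.6% of the first windows of 27025 genes. The windows of all genes were not matched to those of the members in base composition. Part of the members was also listed as known hypoxia targets, so the 2 shares are no test of enrichment. Epas1, Bnip3l and Ndrg1 had no entry. Of the members that rose in ischemic microglia, Gpi1, Aldoa, Tpi1, Eno1, Pkm, Ldhb, Taldo1 and Tkt held no match. Pgam1, Pfkfb3, Pdk3, Hif1a and Bnip3 held at least 1, besides Ldha and the 3 genes shown. Hk2, Hk3, Pfkm, Egln1, Ankrd37, P4ha1 and P4ha2 held 1 or 2 and were not called between the microglia groups. A match is a string of letters and was not tested as a binding site.

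Hexokinases trap glucose in the cell as glucose-6-phosphate. Hk2, the form induced in activated and proliferating cells, stood at 326, 308, 335 and 328 CPM in control microglia and 333, 289, 429 and 309 in ischemic microglia, which overlapped. In brain CD11c cells it was 150, 138, 169 and 132 CPM, and in spleen CD11c cells 49.6, 41.2, 38.8 and 40.4. Brain CD11c cells thus lay below every ischemic microglia library (log2 difference -1.21 ± 0.12 SE, adjusted p = 1.07e-06) and above every spleen library (1.80 ± 0.13, adjusted p = 3.55e-09). Hk3, a hexokinase of myeloid cells, was 209 to 236 CPM in control microglia and 51.5 to 65 in spleen CD11c cells (log2 difference -2.02 ± 0.24, adjusted p = 1.35e-06). Brain CD11c cells spanned 62.5 to 160 CPM, and the Hk3 call against ischemic microglia (-0.62, adjusted p = 0.043) was lost without any 1 of 5 of the 8 libraries (adjusted p up to 0.127; ischemic replicates 1, 3 and 4, brain replicates 3 and 4). Hk1, the widely expressed form, fell in ischemic microglia from 51.6 to 59.1 CPM to 34 to 41.3 CPM (-0.56 ± 0.13, adjusted p = 0.0032).

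Phosphofructokinase commits sugar to glycolysis, and its liver, muscle and platelet subunits are made by Pfkl, Pfkm and Pfkp. Pfkp divided the microglia from the CD11c cells. Its levels were 3.55, 4.99, 6.31 and 7.05 CPM in control microglia, 4.76, 5.05, 5.88 and 6.67 in ischemic microglia, 116, 128, 191 and 145 in brain CD11c cells, and 63.2, 79.3, 65.5 and 83 in spleen CD11c cells. No CD11c library came near a microglia library. The difference was 4.70 ± 0.22 on the log2 scale between brain CD11c cells and ischemic microglia (adjusted p = 2.01e-10), 3.73 ± 0.21 between spleen CD11c cells and control microglia (adjusted p = 1.37e-10) and 1.00 ± 0.19 between brain and spleen (adjusted p = 0.000215). The last exons of Pfkp overlap those of Pitrm1 on the other strand over 5.58% of its exon bases, and how strand was counted is not stated. Pfkl took the opposite course, with 139 to 269 CPM in ischemic microglia, 78 to 156 in brain CD11c cells (-0.85 ± 0.22, adjusted p = 0.00562, with overlap) and 50.5 to 54.2 in spleen. Pfkm was low, at 6.41 to 19.5 CPM over all libraries, and its call against ischemic microglia (-0.45 ± 0.15, adjusted p = 0.0281) was lost without any 1 of 6 of the 8 libraries, which were all 4 ischemic replicates and brain replicates 1 and 2 (adjusted p up to 0.104).

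The other upper enzymes mostly rose with ischemia. Gpi1, which isomerises glucose-6-phosphate, was 141, 146, 158 and 170 CPM in control and 274, 268, 271 and 288 CPM in ischemic microglia. These groups were tight and far apart (0.84 ± 0.09, adjusted p = 3.1e-06). Aldolase A (Aldoa) was 259 to 375 CPM in control microglia and 368 to 680 in ischemic microglia (0.77 ± 0.23, adjusted p = 0.0166), and its brain-type relative Aldoc fell from 28.9, 18.2, 24.7 and 32.9 CPM to 10.7, 11.9, 18.2 and 12.4 CPM (-0.98 ± 0.23, adjusted p = 0.00375). The Aldoc groups met at 18.2 CPM without crossing. Ischemic replicate 2 was the low point of Aldoa at 368 CPM, and the Aldoa call was lost without control replicate 1, ischemic replicate 1 or ischemic replicate 3 (adjusted p up to 0.0548). Aldoc is also a marker of astrocytes, and the summed astrocyte markers (6 genes) were 179 to 200 CPM in control and 158 to 178 in ischemic microglia. Most of this sum was Slc1a3 (means of 153 and 129 CPM), and the other markers were mixed. Slc1a2 (23 and 10.1 CPM), Gja1 (4.04 and 2.27) and Aqp4 (1.38 and 0.815) were lower in ischemic microglia by mean. Gfap (5.2 and 23 CPM) and Aldh1l1 (3.09 and 4.67) were higher. The part of these markers in the Aldoc difference was not tested. Triose phosphate isomerase (Tpi1) rose from 74 to 118 CPM to 115 to 305 CPM (1.26 ± 0.31, adjusted p = 0.00565), overlapping through ischemic replicate 2. All of these except Aldoc and Pfkm were higher in brain than in spleen CD11c cells (5 of 7 upper enzymes called).

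Lower glycolysis, from glyceraldehyde phosphate to pyruvate, was higher for 4 of 5 genes in ischemic than in control microglia and for 5 of 5 in brain than in spleen CD11c cells. Pyruvate kinase (Pkm), which makes the final ATP, stood at 192, 208, 232 and 232 CPM in control microglia and 595, 410, 645 and 589 in ischemic microglia, a gap with no overlap (1.37 ± 0.25, adjusted p = 0.000641). In brain CD11c cells it was 959, 851, 387 and 372 CPM, and in spleen CD11c cells 178, 197, 190 and 199 (1.75 ± 0.26, adjusted p = 2.02e-05). Enolase (Eno1) followed, with 45, 56, 65.6 and 58.6 CPM in control microglia, 116, 80.2, 116 and 110 in ischemic microglia (0.91 ± 0.20, adjusted p = 0.00276), 92.7 to 198 in brain CD11c cells and 50.4 to 53.5 in spleen (1.39 ± 0.21, adjusted p = 2.22e-05). Phosphoglycerate kinase (Pgk1) rose by 1.55 ± 0.31 in ischemic microglia (adjusted p = 0.00106) and phosphoglycerate mutase (Pgam1) by 1.48 ± 0.38 (adjusted p = 0.00605). None of these 4 genes was called between spleen CD11c cells and control microglia, with log2 differences from -0.18 (Pkm) to 0.35 (Pgk1), while Gapdh was lower in spleen (-1.13 ± 0.18, adjusted p = 4.15e-05).

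The absolute levels of several of these enzymes are uncertain. Gapdh, usually among the most abundant mRNAs, was listed at 6.93 to 20.5 CPM, Pgk1 at 2.6 to 20 CPM and Pgam1 at 0.995 to 9.49 CPM. Of the 50-base words in their transcripts, 24.7% (Gapdh), 53.9% (Pgk1) and 36.2% (Pgam1) also occur in other annotated genes, mostly processed pseudogenes, and the same share was 26% for Eno1 (mainly Eno1b) and 25.8% for Pkm. Ldhb (21%) and Bnip3l (20.8%) complete the 7 members with at least 20%. Words were pooled over all annotated transcripts of a gene, so the share within its main mRNA can differ. The treatment of reads that map to several places was not given in the sources used here. Ratios between groups were computed from the same genes in every library, but whether shared reads alter them was not tested. The lower-glycolysis counts above include Gapdh, Pgk1, Pgam1, Eno1 and Pkm.

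Lactate dehydrogenase joins subunits from Ldha, classed as the muscle form and associated with lactate production, and Ldhb, the heart form. Ldha was 108, 122, 139 and 127 CPM in control microglia and 356, 234, 393 and 349 in ischemic microglia, so that every ischemic library was higher (1.42 ± 0.17, adjusted p = 1.45e-05). It was 543, 491, 330 and 351 CPM in brain CD11c cells and 174, 180, 179 and 185 in spleen CD11c cells (1.26 ± 0.17, adjusted p = 7.08e-06). Brain CD11c cells and ischemic microglia overlapped in Ldha (0.36 ± 0.17, adjusted p = 0.0944). Ldhb set the populations apart: 242, 240, 233 and 265 CPM in control microglia, 315, 288, 290 and 310 in ischemic microglia, 77.7, 87.2, 94.8 and 109 in brain CD11c cells, and 1.14, 1.04, 1.24 and 0.903 in spleen CD11c cells. The order ischemic microglia, control microglia, brain CD11c and spleen CD11c cells, from high to low, held in every library. The log2 difference of Ldhb was -1.71 ± 0.11 between brain CD11c cells and ischemic microglia (adjusted p = 4.34e-09), 6.41 ± 0.14 between brain and spleen CD11c cells (adjusted p = 7.42e-15) and -7.82 ± 0.14 between spleen CD11c cells and control microglia (adjusted p = 1.36e-15), the largest of any member in any of the 4 comparisons. The summed microglial markers were likewise higher in both microglia groups than in brain CD11c cells and lowest in spleen CD11c cells, and their part in the Ldhb level of brain CD11c cells was not tested. Between the microglia groups the Ldhb rise was small (0.30 ± 0.10, adjusted p = 0.0339), and its call was lost without any 1 of 6 of the 8 libraries (adjusted p up to 0.111; kept only without control replicate 4 or ischemic replicate 2).

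**Figure D3:**
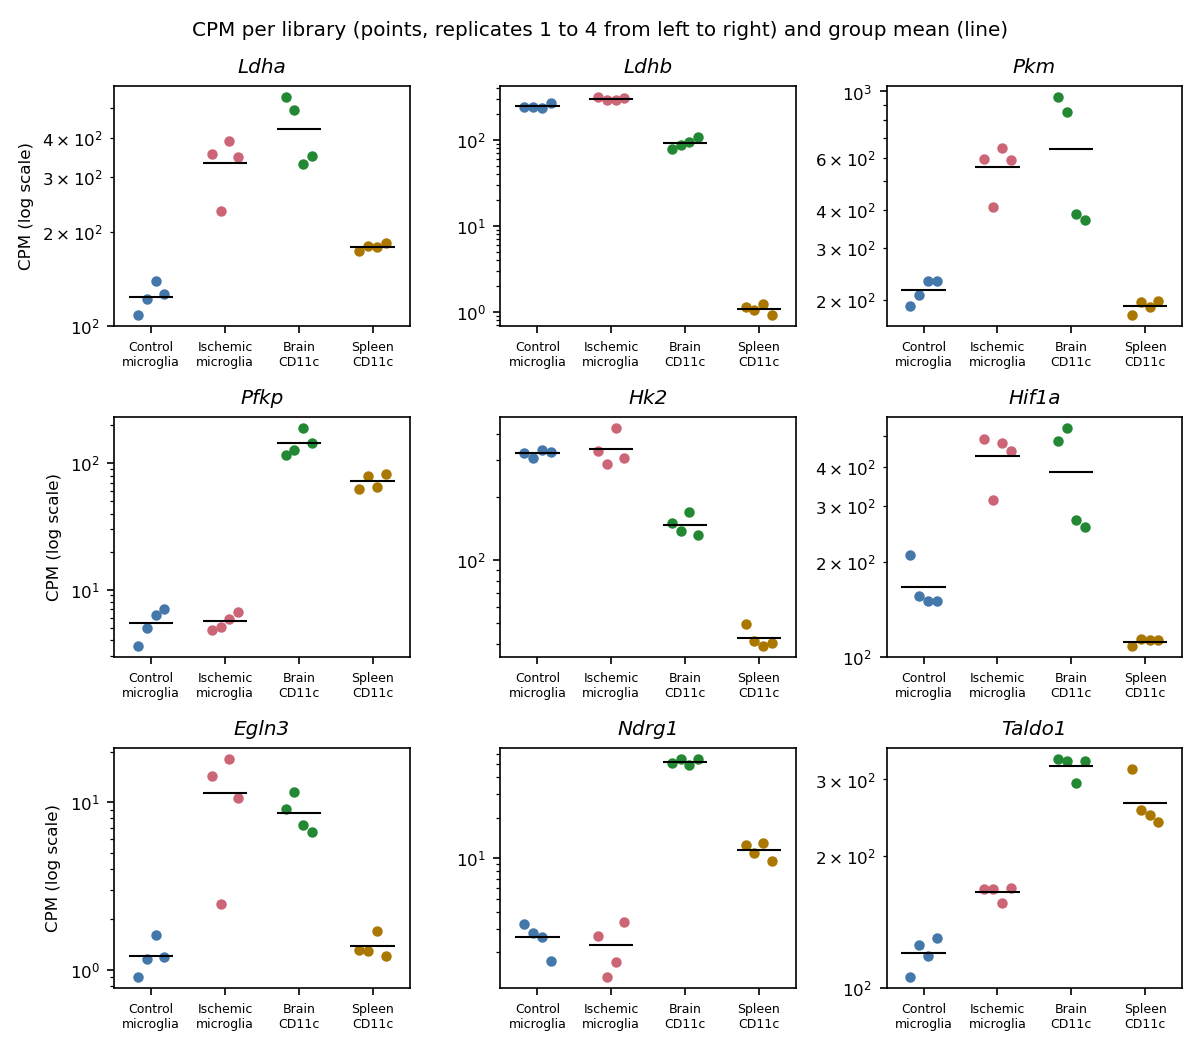
CPM (y axis, log scale) of 9 members in each library, with 4 points per group and a line at the group mean. Ldhb falls from 233 to 315 CPM in microglia to about 1 CPM in spleen, Pfkp and Ndrg1 are high in both CD11c groups, and the brain CD11c points of Pkm and Hif1a split into an upper and a lower pair.

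Shares of the isozymes were computed from CPM per kilobase of the exon union of all annotated transcripts of each gene. This length can exceed that of the mRNA made, so the shares between genes are approximate. Ldhb made up 80.6 ± 1.99% (SD, n = 4) of the lactate dehydrogenase mRNA of control microglia, 65.8 ± 4.70% of ischemic microglia, 31.9 ± 7.97% of brain CD11c cells and 1.26 ± 0.19% of spleen CD11c cells, and the 4 groups did not overlap. Pfkp was 1.45 ± 0.36% and 1.21 ± 0.32% of phosphofructokinase in control and ischemic microglia, 35.4 ± 10.3% in brain CD11c cells and 34.4 ± 3.25% in spleen CD11c cells. The last 2 groups overlapped, from 24.9 to 46.5% in brain and from 31.2 to 38.4% in spleen. For hexokinase, Hk1 was 5.29 ± 0.18% of the total in control microglia and 24.8 ± 2.34% in spleen CD11c cells, and Hk2 held 44.5 ± 1.65%, 53.8 ± 3.45%, 42.5 ± 9.74% and 24.1 ± 0.71% in the order of the groups above. These shares are given as descriptions, without a test. Without division by length the Ldhb shares were 66.4%, 47.9%, 18.4% and 0.60%, in the same order of groups. The leading isozyme can depend on this step. In brain CD11c cells Pfkl was 54.6% and Pfkp 35.4% per kilobase, but 42.5% and 53.8% without division by length.

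**Figure D4:**
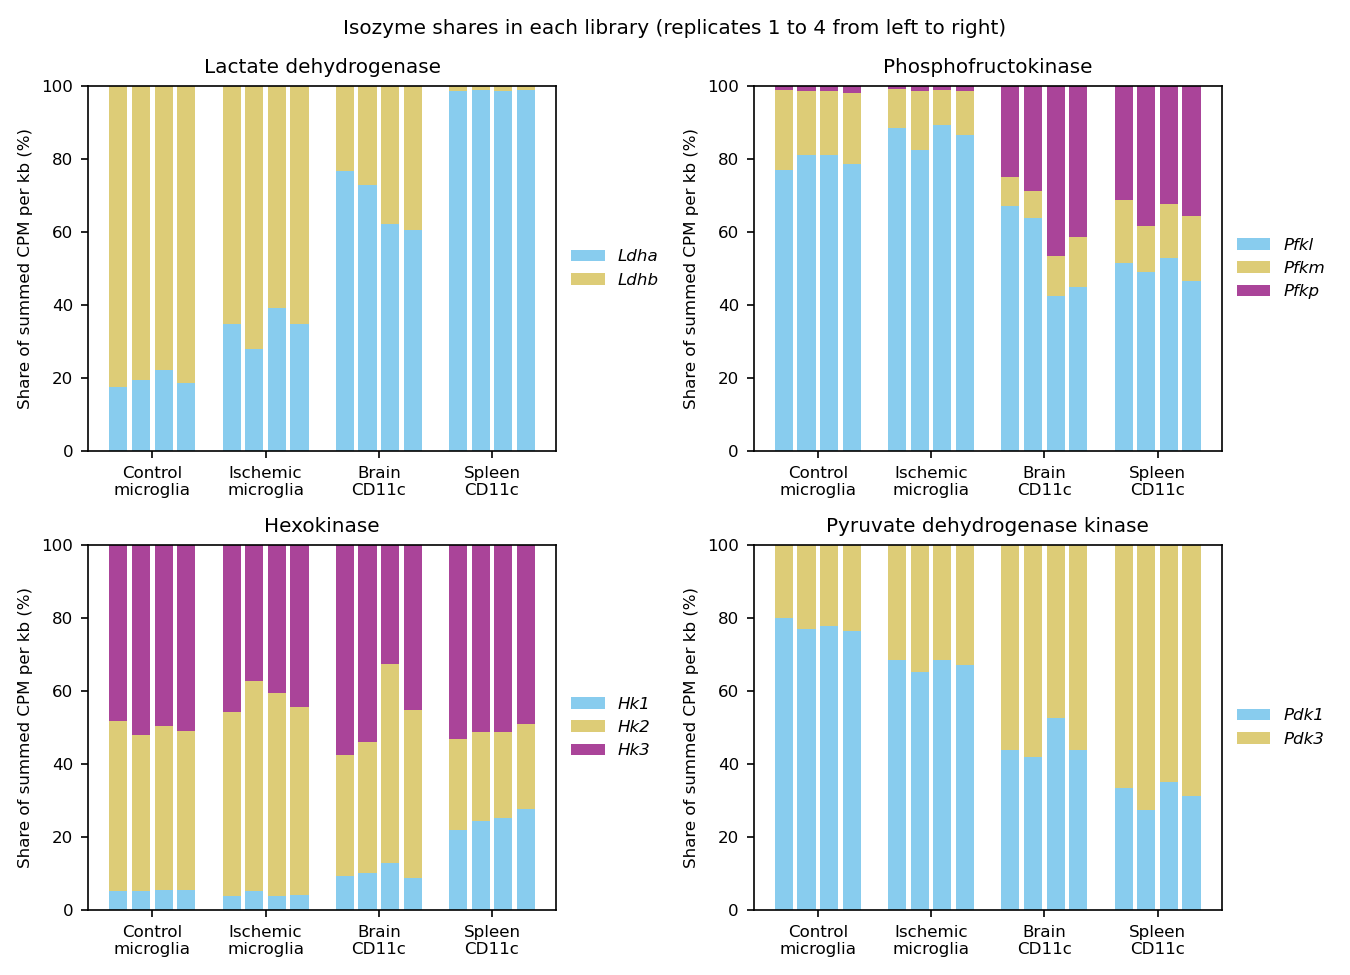
Share of each isozyme in the summed CPM per kilobase of its family (y axis, percent), 1 bar per library, for lactate dehydrogenase, phosphofructokinase, hexokinase and pyruvate dehydrogenase kinase. The Ldhb share steps down from 80.6% to 65.8%, 31.9% and 1.26% (group means), and Pfkp is visible almost only in the CD11c groups.

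Regulators of the pathway split by isozyme too. Pfkfb3 makes the allosteric activator of phosphofructokinase. It was 728, 402, 395 and 407 CPM in control microglia and 818, 796, 809 and 764 in ischemic microglia (0.72 ± 0.20, adjusted p = 0.00961), with control replicate 1 close to the ischemic group. Brain CD11c cells had 377, 434, 341 and 314 CPM (-1.12 ± 0.20 against ischemic microglia, adjusted p = 0.000299) and spleen CD11c cells 104 to 189 CPM. Its relative Pfkfb4 was not called between the microglia groups (-0.20 ± 0.12, adjusted p = 0.213). Pyruvate dehydrogenase kinases keep pyruvate out of the mitochondria. Pdk1, a textbook HIF target, was not called between the microglia groups, with 165, 166, 170 and 145 CPM in control and 181, 143, 170 and 167 in ischemic microglia (0.04 ± 0.11, adjusted p = 0.836), then 73.1, 71.4, 78.2 and 60.8 in brain CD11c cells (-1.22 ± 0.11 against ischemic microglia, adjusted p = 2.29e-07). Pdk3 rose from 13.5, 16.3, 15.8 and 14.8 CPM to 27.4, 25.1, 25.7 and 26.8 CPM in ischemic microglia (0.80 ± 0.11, adjusted p = 4.21e-05), with tight and separate groups. Its share of the Pdk1 and Pdk3 sum was 22.2 ± 1.59% in control microglia, 32.6 ± 1.54% in ischemic microglia, 54.5 ± 4.88% in brain CD11c cells and 68.3 ± 3.24% in spleen CD11c cells. Without division by length the Pdk3 share was 8.58%, 13.8%, 28.4% and 41.6% in the same order, so Pdk1 then led in every group.

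Pentose phosphate genes were higher in brain CD11c cells than in spleen for 4 of 4 members, and 2 of 4 rose in ischemic microglia. Over all genes, 31.2% and 17.7% were called in these directions. The G6pdx, Taldo1 and Tkt calls of brain over spleen were lost with scaling by library totals. They were also lost with only brain replicates 3 and 4, and Pgd alone kept its call in both runs. Transaldolase (Taldo1), of the branch that feeds sugars back to glycolysis, was 106, 125, 118 and 130 CPM in control microglia, 169, 168, 156 and 170 in ischemic microglia (0.47 ± 0.10, adjusted p = 0.00171), 334, 332, 294 and 331 in brain CD11c cells (0.96 ± 0.10 against ischemic microglia, adjusted p = 1.22e-06) and 317, 255, 249 and 240 in spleen CD11c cells. Transketolase (Tkt), of the same branch, ran in parallel at 159 to 192, 224 to 237, 303 to 422 and 257 to 284 CPM in that order of groups (0.61 ± 0.10 between brain CD11c cells and ischemic microglia, adjusted p = 0.000178). Every CD11c library was thus above every microglia library in both genes. The Taldo1 call of brain over spleen (0.28 ± 0.10, adjusted p = 0.0197) was lost without any 1 of 5 of the 8 libraries (brain replicates 1 and 2, spleen replicates 2, 3 and 4; adjusted p up to 0.0684). The NADPH-making enzymes behaved differently. Pgd was 384, 362, 226 and 192 CPM in brain and 105, 97.2, 95.1 and 115 in spleen CD11c cells (1.50 ± 0.17, adjusted p = 1.18e-06). G6pdx, the entry enzyme, ranged from 67.2 to 136 CPM over all groups and was not called between the microglia (0.13 ± 0.14, adjusted p = 0.506). It overlaps Ikbkg on the other strand over 13.6% of its exon bases.

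Within the HIF system, Hif1a and the hydroxylase Egln3 rose in ischemic microglia, and all 4 members were higher in brain than in spleen CD11c cells. Hif1a, the HIF-1 alpha subunit, was 210, 155, 150 and 150 CPM in control microglia and 489, 314, 476 and 449 in ischemic microglia, with a clear gap (1.38 ± 0.21, adjusted p = 0.000157). It was 483, 530, 271 and 258 CPM in brain CD11c cells and 108, 114, 113 and 113 in spleen CD11c cells (1.79 ± 0.22, adjusted p = 2.44e-06). Against control microglia the spleen level was slightly lower (-0.58 ± 0.21, adjusted p = 0.0236), a call lost without control replicate 1 (adjusted p = 0.114). Egln3 had the largest rise of all members in ischemic microglia, from 0.899, 1.15, 1.6 and 1.18 CPM to 14.3, 2.47, 18.1 and 10.6 CPM (3.23 ± 0.44, adjusted p = 4.82e-05). Ischemic replicate 2 stood far below the other 3, and without it the difference was 3.55 (adjusted p = 2.54e-07). Brain CD11c cells had 9.05, 11.5, 7.33 and 6.61 CPM of Egln3 and spleen CD11c cells 1.32, 1.3, 1.71 and 1.2 (2.64 ± 0.43, adjusted p = 4.98e-05). The main oxygen sensor Egln1 did not share this pattern. It was 47.8, 53.5, 63.6 and 62 CPM in control microglia, 55.7, 40.3, 61.9 and 47.2 in ischemic microglia (-0.14 ± 0.15, adjusted p = 0.467), 56.8, 55.5, 40.8 and 39.4 in brain CD11c cells and 31.2, 27.6, 30.5 and 29.3 in spleen. Epas1, which encodes HIF-2 alpha, was low throughout, at 5.42, 3.15, 5.59 and 5.69 CPM in control microglia, 3.68, 3.59, 4.6 and 4.68 in ischemic microglia, 5.62, 5.96, 10.2 and 5.91 in brain CD11c cells and 0.821, 0.616, 1.01 and 0.995 in spleen CD11c cells (3.0 ± 0.27 between brain and spleen, adjusted p = 6.81e-08). Its call of brain CD11c cells over ischemic microglia (0.74 ± 0.25, adjusted p = 0.0242) was lost without brain replicate 3 or ischemic replicates 1 or 2 (adjusted p up to 0.0999).

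Of the known hypoxia targets outside glycolysis, 2 of 10 (20%) rose in ischemic microglia, Ero1l and Bnip3, near the 17.7% of all genes called higher. Ero1l, an oxidase for disulphide bonds in the endoplasmic reticulum, went from 13.1, 12, 13.3 and 13.5 CPM to 36.3, 26.3, 47.1 and 41.5 CPM (1.54 ± 0.29, adjusted p = 0.000824). Bnip3, a receptor for removal of mitochondria, was 9.39 to 12.9 CPM in control and 9.35 to 23.6 CPM in ischemic microglia (0.76 ± 0.28, adjusted p = 0.0413). The groups overlapped through ischemic replicate 2, and the Bnip3 call was lost without any 1 of 6 of the 8 libraries (adjusted p up to 0.135; kept only without control replicate 3 or ischemic replicate 2). Bnip3l, its close relative, was 99 to 115 CPM in control and 95.8 to 116 in ischemic microglia (-0.01 ± 0.09, adjusted p = 0.981). Ankrd37, Adm, Higd1a, P4ha1, P4ha2, Mxi1 and Ndrg1 were not called there either, with log2 differences from -0.42 (P4ha1) to 0.82 (Adm).

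Ndrg1, a growth-arrest gene induced by hypoxia and by differentiation, was high in both CD11c groups, like Pfkp. It was 3.22, 2.77, 2.61 and 1.73 CPM in control microglia, 2.66, 1.3, 1.7 and 3.36 in ischemic microglia, 51.3, 54.8, 49.1 and 54.5 in brain CD11c cells and 12.6, 10.9, 13 and 9.56 in spleen CD11c cells. Brain CD11c cells exceeded ischemic microglia by 4.54 ± 0.26 (adjusted p = 1.48e-09) and spleen CD11c cells by 2.19 ± 0.23 (adjusted p = 4.09e-07). P4ha1, a collagen prolyl hydroxylase subunit, ran the other way: 210, 413, 395 and 299 CPM in control microglia, 265, 149, 301 and 270 in ischemic microglia, 180, 172, 99.9 and 101 in brain CD11c cells and 45.9, 29.4, 29.7 and 40.1 in spleen (1.93 ± 0.28 between brain and spleen, adjusted p = 1.69e-05). Mxi1, an antagonist of Myc, was 73.6 to 81.2, 85.7 to 113, 55.5 to 113 and 16.2 to 22 CPM in control microglia, ischemic microglia, brain and spleen CD11c cells (2.21 ± 0.20 between brain and spleen, adjusted p = 9.62e-08). Adm, the vasodilator peptide adrenomedullin, was the only member called lower in brain than in spleen CD11c cells with TMM scaling, at 0.664 to 1.39 against 2.39 to 4.47 CPM (-2.00 ± 0.35, adjusted p = 0.00011). With scaling by library totals Hk1 (-0.53, adjusted p = 0.0012) and Pdk3 (-0.45, adjusted p = 0.00067) were called lower too. P4ha2 was at or below 2.32 CPM in every library, so its differences rest on few counts. The Ero1l call of brain over spleen (0.78 ± 0.29, adjusted p = 0.0257) was lost without brain replicates 1 or 2 or spleen replicates 2 or 3 (adjusted p up to 0.144).

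Other genes of the same pathways were taken from a list fixed with the members. Their counts stand beside 17.7% of all genes called higher and 18% lower in ischemic microglia, and 31.2% higher and 33% lower in brain than in spleen. Of 28 further hypoxia genes tested, 11 rose and 2 fell in ischemic microglia, and 17 were higher and 2 lower in brain than in spleen CD11c cells. Of 23 further glycolysis and transporter genes, 8 rose and 2 fell in ischemic microglia. In brain against spleen their counts were 8 and 8, both near the shares over all genes. Among those with at least 20 CPM in the higher group, the transporter gene Slc2a6 rose in ischemic microglia from a mean of 5.23 to 170 CPM (5.02 ± 0.16, adjusted p = 1.1e-11), and the lipid droplet gene Hilpda (2.31 ± 0.29) and the repressor Bhlhe40 (2.10 ± 0.14) rose too. Against ischemic microglia, brain CD11c cells were higher in 7 and lower in 10 of the 28 further hypoxia genes (median log2 difference -0.33). For the 23 further glycolysis and transporter genes these counts were 4 and 3. Over all genes, 19.7% were called higher and 19.1% lower. Brain CD11c cells exceeded ischemic microglia in Bhlhe40 (519 against 40.2 CPM, 3.69 ± 0.15), the angiogenic factor Vegfa (197 against 21.9 CPM, 3.17 ± 0.56), Ddit4 (2.58 ± 0.53) and Nfil3 (1.56 ± 0.10). Brain CD11c cells were lower in Ier3 (-1.06 ± 0.23), Wsb1 (-0.78 ± 0.19) and Kdm3a (-0.68 ± 0.13). Over spleen CD11c cells they were higher in Vegfa (5.45 ± 0.63), Ier3 (4.95 ± 0.28) and Nfil3 (4.64 ± 0.12), while Bpgm (-2.40 ± 0.40) and the glucose transporter gene Slc2a3 (-2.12 ± 0.27) were higher in spleen. Bpgm is abundant in red cells, whose markers (6 genes) summed to 52.9 to 3538 CPM in spleen and 0.126 to 1.15 CPM in brain CD11c libraries, and their part in the Bpgm difference was not tested. Among 9 further pentose phosphate genes, 1 rose in ischemic microglia and 3 were higher and 4 lower in brain than in spleen.

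Libraries within a group differed in ways that touch these results. In brain CD11c cells, 24 of 39 members (61.5%) were higher in both of replicates 1 and 2 than in both of replicates 3 and 4, and 5 (12.8%) were lower, namely Pfkm, Pfkp, Aldoc, Ldhb and Pfkfb4. Over 12792 genes with a mean of at least 1 CPM the shares were 34% and 27.1%. Replicates 1 and 2 were the higher pair in 4 of 5 lower-glycolysis genes and 4 of 4 pentose phosphate genes. Pkm, Aldoa (818 and 766 against 367 and 447 CPM), Tpi1 (310 and 256 against 117 and 127 CPM), Hif1a and Ero1l (47.1 and 54.2 against 23.6 and 16.1 CPM) were about 2-fold apart. The same pairs differed in summed cell cycle markers (579 and 561 against 165 and 152 CPM, 10 genes) and dendritic cell markers (3900 and 5317 against 8999 and 10431 CPM), beside microglial markers of near-equal sum (6842 and 6887 against 6636 and 6832 CPM). Monocyte markers (6 genes) were higher in replicates 1 and 2, at 1730 and 1394 against 1077 and 1092 CPM. H2-Ab1 alone ranged from 3514 to 9487 CPM over the brain CD11c libraries and made up most of the dendritic cell sum. The part of these marker lists in the result was not tested.

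Against ischemic microglia, replicates 1 and 2 alone gave 11 members higher and 8 lower, and replicates 3 and 4 alone gave 5 higher and 15 lower. Pkm was 0.69 higher on the log2 scale with the first pair (adjusted p = 0.00136) and lower with the second (-0.55, adjusted p = 0.0102), and Pgd likewise moved from 0.52 (adjusted p = 0.000251) to -0.30 (adjusted p = 0.0308). Hif1a was 0.23 (adjusted p = 0.282) with the first pair and -0.69 (adjusted p = 0.00509) with the second. The differences in Pfkp (4.45 and 4.92), Ndrg1 (4.55 and 4.53), Ldhb (-1.87 and -1.55), Hk2 (-1.24 and -1.16) and Taldo1 (1.01 and 0.93) were close in size with either pair. Against spleen CD11c cells, 33 members were higher with the first pair and 27 with the second. The shares of all genes called in these smaller fits are not given here. The counts by pair, against ischemic microglia and against spleen, therefore cannot be read as particular to the members. Pkm remained higher in brain with both (2.25 and 0.96), as did Ldha (1.53 and 0.89) and Hif1a (2.19 and 1.21).

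Among microglia, ischemic replicate 2 was the lowest of its group in 27 of 39 members, beside 32.7% of all genes with a mean of at least 1 CPM, and control replicate 1 was the lowest in 24, beside 42.3%. Without ischemic replicate 2, 18 members rose and 2 fell. Immediate early genes (11 genes), which respond to cell isolation as well as to stimulation in the animal, summed to 15920 to 18362 CPM in control microglia, 6491 to 11290 in ischemic microglia, 4278 to 8622 in brain CD11c cells and 283 to 348 in spleen CD11c cells. Their part in the differences between groups was not tested.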

How the data were processed

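RNA of 16 libraries, 4 in each of 4 groups, was sequenced from stranded poly(A) preparations. The counts per gene are whole numbers as deposited by the authors. Reads were checked with FastQC 0.11.5 and aligned with STAR 2.5.3a to GRCm38, per the submitters' processing notes. The counting program, its strand setting and the annotation release were not given in the sources used here. Genes were named through GENCODE release M21, and promoters are from RefSeq.

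Counts were fitted with edgeR 4.0.16 under R 4.3.3 (glmQLFit with robust estimation, glmQLFTest, TMM scaling, filterByExpr), with all 16 libraries in 1 model and a mean per group. Tests were two-sided, adjusted by the Benjamini-Hochberg method over 16345 genes with a threshold of 0.05. The script was tested on simulated data. Depth was 31569304 to 48245164 counts per library. All members could be named. Values in every library are given for called members with groups that do not overlap and at least 20 CPM in the higher group, up to 8 per comparison by size, and for the HIF regulators. Other pathway genes were named up to 4 per direction and comparison, and 1 gene is not reported here. Isozyme shares use CPM divided by the length of the exon union. Replicate numbers follow the order of deposition.

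Alternatives were DESeq2 1.42.0, voom of limma 3.58.1, other scalings and filters, only the 2 groups compared, each library left out, and either pair of brain CD11c libraries. The members and lists were chosen with earlier results of these data known.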

Additional observations from a re-analysis of the deposited data

Results flagged for a closer look

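In each group of 4 libraries the highest or lowest value was compared with the nearest of the others, for 39 genes in 4 groups. Of these 156 sets, 13 had a library far from the other 3. Chance alone flags about 1 in 20 sets.

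Ischemic microglia replicate 2 was far below the others in 3 genes, with Pgk1 at 6.348 CPM (others 13.28 to 14.25), Eno1 at 80.21 CPM (others 110.2 to 115.8) and Higd1a at 6.906 CPM (others 10.24 to 10.62). Control microglia replicate 1 was high in Pfkfb3 at 728.1 CPM (others 395.4 to 407.2) and in Hif1a at 210.2 CPM (others 149.6 to 155.4). In the other control libraries, Epas1 was low in replicate 2 at 3.149 CPM and Mxi1 was high in replicate 4 at 81.17 CPM.

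In brain CD11c cells, Hk1 was low in replicate 4 at 35.29 CPM (others 55.39 to 59.42), Taldo1 was low in replicate 3 at 293.9 CPM (others 330.8 to 334.3) and Epas1 was high in replicate 3 at 10.21 CPM (others 5.617 to 5.965). Taldo1 in ischemic microglia replicate 3 was 156.3 CPM, beside 168.3 to 169.5 in the others. In spleen CD11c replicate 1, Pfkfb4 was high at 46.72 CPM (others 38.42 to 38.89), and Hif1a was low at 107.8 CPM (others 112.7 to 113.6), where the whole range of the group is small.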

How the results depend on the processing

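Calls held in every alternative run for 16 of 19 called members between the microglia groups, 9 of 16 between brain CD11c cells and ischemic microglia, 24 of 33 between brain and spleen CD11c cells and 27 of 29 between spleen CD11c cells and control microglia. Of 2492 recomputed member values, 62 changed sign while both values missed the threshold. With only brain replicates 3 and 4, 3 values reversed: Pkm (-0.55) and Pgd (-0.30) against ischemic microglia, and Ero1l (-0.0779) against spleen. Scaling by library totals moved the median of all genes from -0.05 to -0.20 between the microglia groups, from -0.04 to -0.30 between brain and spleen and from 0.11 to 0.34 between spleen and control microglia. With it, 5 members fell in ischemic microglia (4 with only the 2 groups compared, against 2) and 3 were lower in brain than in spleen, against 1 (3 with only brain replicates 3 and 4). With only brain replicates 1 and 2, 11 members were higher than in ischemic microglia, against 6. The stricter filter gave 3577 genes lower in brain than in spleen, against 5390, over fewer genes tested. Leaving out 1 library gave 6 to 11 members lower in brain CD11c cells than in ischemic microglia (6 without ischemic replicate 1 or 3) and 1 to 2 lower in brain than in spleen (2 without brain replicate 1, 2 or 4). On CPM not divided by length, in the order control microglia, ischemic microglia, brain CD11c and spleen CD11c cells, Ldhb shares were 66.4, 47.9, 18.4 and 0.60%, Pfkp shares 3.16, 2.57, 53.8 and 54.3%, and Pdk3 shares 8.58, 13.8, 28.4 and 41.6%. Hk2 shares became 53.5% in control microglia, 62.8% in ischemic microglia and 26.4% in spleen. Unless stated, the cause was not tested. No paired analysis was possible because the groups compared share at most 1 title number (11, in 1 brain and 1 spleen CD11c library, and in 1 ischemic microglia library of another strain). Members of low count, such as P4ha2, are limited by depth.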
